A study of Mus musculus with 4 samples.

Results

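The Clcn5 intron cluster comprises 9 mature miRNAs, mmu-miR-500-3p, mmu-miR-501-3p, mmu-miR-501-5p, mmu-miR-362-3p, mmu-miR-362-5p, mmu-miR-188-3p, mmu-miR-188-5p, mmu-miR-532-3p and mmu-miR-532-5p. They were taken by name from a table of Ago-bound sRNAs of the mouse brain, where they accounted for 9 of 1029 miRNA names and for 310 of 85704 sequences. Of the sequences in the table, 40045 carried any miRNA name. The study asked how the content of the RISC in the brain differs between young and old mice. Cortex and hippocampus combined, from male C57BL/6J mice (labelled BL6) without a transgene or treatment, gave 2 libraries at 2 months (2M) and 2 at 18 months (18M). Before sequencing, the Ago1-4 proteins were captured with a peptide of GW182, and the RNA held by them was sized on a gel. The libraries held 9067007 to 11388999 reads, with 96.6% to 96.7% of reads on miRNAs, and values are given in CPM, reads of a sequence scaled by the authors to the same total in each library.

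Most miRNAs are cut from a hairpin, first out of the primary transcript by Drosha and then to a short duplex by Dicer. One strand of the duplex stays in an Ago protein as the guide and the other is usually lost, and the strands are named 5p and 3p by the arm of the hairpin they come from. Since both arms of a hairpin start from the same transcript, the ratio between them is a readout of what happens after transcription. Bases 2 to 8 of the guide, the seed, pair with the target mRNA. Clcn5, the host gene, encodes ClC-5, a chloride/proton exchanger of endosomes that is best known from the kidney. In neurons, miR-188 and miR-501-3p have been studied for roles at the synapse.

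The 5 hairpins lay on the minus strand of chromosome X in GRCm38, chrX:7237683-7248497, in the same direction as Clcn5 (7153810 to 7319358). All of them sat in 1 intron, 7213011 to 7316658, which is present in 3 of the 5 annotated Clcn5 transcripts, and none overlapped an exon. In the direction of transcription, Mir532 (7248402 to 7248497) came first, 70861 nucleotides from the 5′ end of the gene. It was followed by Mir188 (7247989 to 7248056), Mir362 (7241982 to 7242046), Mir501 (7241243 to 7241351) and Mir500 (7237683 to 7237774). The cluster spanned 10815 nucleotides of an intron of 103648.

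The mature sequences are shown because they decide which arms share a seed. RefSeq (GRCm38.p6) held 8 of the 9 members, and mmu-miR-532-5p is named only. Capitals mark bases 2 to 8, and the members are ordered by shared or related seeds.
mmu-miR-500-3p: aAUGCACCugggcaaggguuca
mmu-miR-501-3p: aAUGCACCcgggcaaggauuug
mmu-miR-362-3p: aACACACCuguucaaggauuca
mmu-miR-362-5p: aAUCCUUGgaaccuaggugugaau
mmu-miR-501-5p: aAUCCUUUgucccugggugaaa
mmu-miR-188-5p: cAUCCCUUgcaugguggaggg
mmu-miR-188-3p: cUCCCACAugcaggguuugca
mmu-miR-532-3p: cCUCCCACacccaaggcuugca

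miR-500-3p and miR-501-3p had the same seed and differed at 4 of 22 bases, U9C, G18A, C21U and A22G (counted from the 5′ end, miR-500-3p first). The 3p arm of miR-362 resembled both. It differed from miR-500-3p at 5 of 22 bases, C3U, A4G, U11G, U12G and A18G (miR-362-3p first), so that 2 of the differences fell inside the seed. On the 5p side, miR-362-5p and miR-501-5p shared their 6mer seed (positions 2 to 7) and differed at 6 of 22 bases. These were G8U, A10U, A11C, A15G, U20A and G21A (miR-362-5p first), so that only position 8 fell inside bases 2 to 8. The hairpin of miR-362 is shown as well, with both mature arms in capitals. It was chosen for the age change of its arm ratio (limma, unadjusted p = 0.0143, adjusted p = 0.758), which did not pass the adjusted threshold.
Mir362 hairpin: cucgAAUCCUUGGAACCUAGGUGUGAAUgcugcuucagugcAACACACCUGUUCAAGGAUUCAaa

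**Figure D1:**
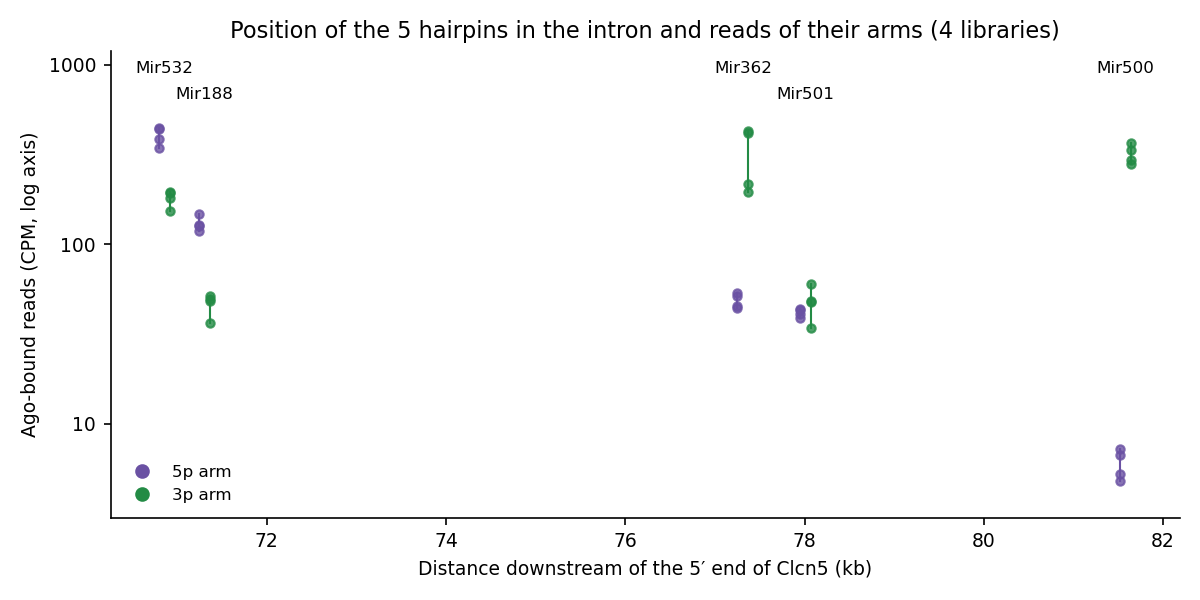
Distance of each hairpin from the 5′ end of Clcn5 (kb, x axis) and the reads of its arms in the 4 libraries (CPM, log axis; each point is 1 library, and a line joins the lowest and the highest). Mir532 and Mir188 lie close together at the upstream end, and the 3p arm dominates in Mir362 and Mir500 while the 5p arm dominates in Mir532 and Mir188.

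The cluster was a minor part of the RISC. Its 9 members summed to 1448 and 1531 CPM in young and to 1605 and 1565 CPM in old mice, which was 0.150% to 0.166% of miRNA reads. Both 18M sums were above both 2M sums. The difference of 95.5 CPM had an exact permutation p of 0.333 (two-sided), the smallest that 2 against 2 libraries can give, and the same holds for every exact test below. Rescaling of the libraries by the median of ratios changed the difference to 320.3 CPM. It was 39.9 CPM with the most abundant sequence of each member only, where the ages overlapped (exact permutation p = 0.667), and 54.3 CPM without 2M replicate 1. The miRNAs whose profile over the 4 libraries lay nearest to that of the sum were miR-195a-5p, miR-34c-3p and miR-145a-3p, with root mean square distances of 0.0251, 0.0365 and 0.0426 on the log2 scale.

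Within the cluster, levels differed by about an order of magnitude, with single members at rank 168 to 348 of the 1029 names. On the mean over all libraries miR-532-5p was highest, with 447 and 439 CPM in young and 345 and 389 CPM in old mice. In both old libraries miR-362-3p was above it, at 418 and 429 CPM, and this member is described below. The second highest mean was that of miR-500-3p, with 281 and 369 CPM in young and 336 and 296 CPM in old mice. Over all libraries, the range of miR-532-5p overlapped with that of miR-500-3p. miR-532-3p was measured at 182 and 197 CPM in young and at 195 and 153 CPM in old mice. miR-188-5p gave 128 and 147 CPM in young and 119 and 127 CPM in old mice, below all values of miR-532-3p. The remaining 4 members, miR-362-5p, miR-501-3p, miR-188-3p and miR-501-5p, lay between 34.4 and 60.0 CPM in every library and their ranges overlapped.

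miR-362-3p was the only member that passed an unadjusted limma p under 0.05 between the ages. It was measured at 218 and 195 CPM in the 2M libraries and at 418 and 429 CPM in the 18M libraries. Both old libraries were thus above both young libraries, and the means were 207 ± 16.1 and 423 ± 7.53 CPM (SD, n = 2 each), a ratio of 2.05. In a limma fit to log2(CPM + 1) of the 456 miRNAs with a mean of at least 10 CPM, it rose by 1.03 on the log2 scale (SE 0.20, 95% interval 0.54 to 1.52, unadjusted p = 0.00191). This was the third largest rise of the 456. The Benjamini-Hochberg adjusted p of this limma fit was 0.0968, so the rise passed the unadjusted threshold of 0.05 and not the adjusted one.

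Of all miRNAs tested, 16.2% passed an unadjusted p under 0.05, with 4.17% higher at 18 months, and 0.219% passed the adjusted threshold. Among the members, 1 of 9 was higher, 0 were lower and 0 passed the adjusted threshold. The libraries of both ages were completely separated with old above young for 12.1% of the miRNAs. They were separated with old below young for 41.4%. Within the cluster these counts were 1 and 2 of 9. The 2 members with both old libraries below both young ones were miR-532-5p and miR-188-5p. Their log2 differences under the median of ratios were -0.060 and 0.053, so the direction of miR-188-5p depended on the scaling.

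**Figure D2:**
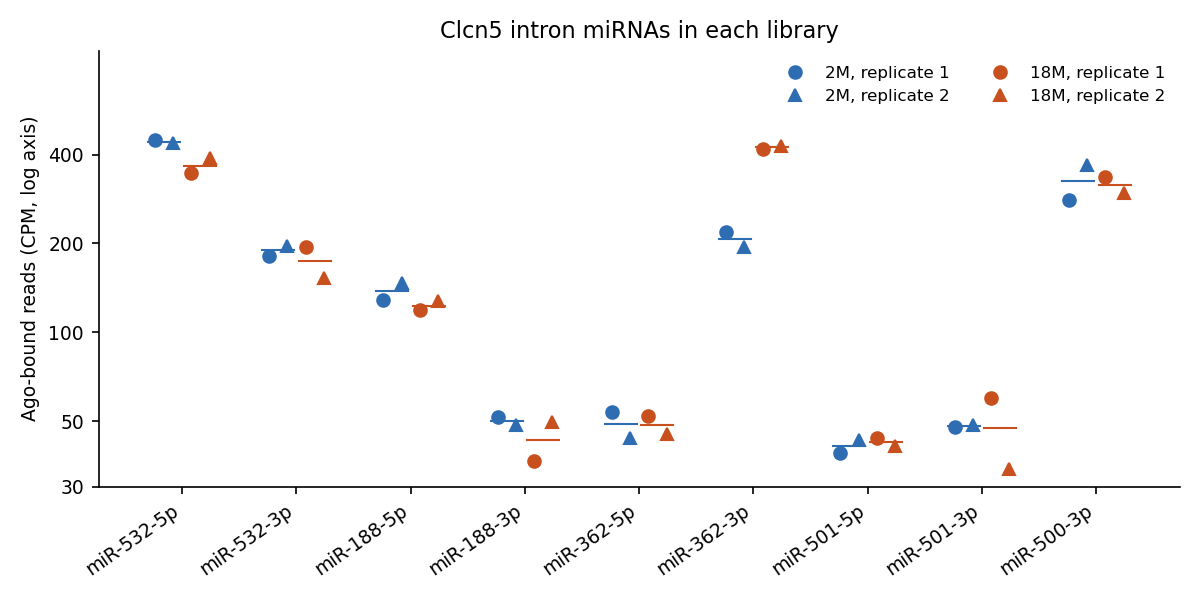
Reads of each member in each library (CPM, log axis), ordered along the transcript from Mir532 to Mir500, with short lines at the mean of each age. The libraries of miR-362-3p split by age, with 195 to 218 CPM in young and 418 to 429 CPM in old mice, while those of most other members overlap.

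The 5p arm of this hairpin, miR-362-5p, was measured at 53.9 and 44.0 CPM in young and at 51.9 and 45.3 CPM in old mice. These values overlapped, and the log2 difference was -0.01 (SE 0.24, 95% interval -0.59 to 0.58, adjusted limma p of 0.992). miR-532-5p was the most abundant member on the mean over all libraries. Its log2 difference was -0.27 (SE 0.20, 95% interval -0.76 to 0.22, limma, unadjusted p = 0.226, adjusted p = 0.496). The remaining 6 members had log2 differences from -0.22 (miR-188-3p) to 0.04 (miR-501-5p), with 95% intervals that reached from -0.84 to 0.68 at their widest. The median over the 9 members was -0.08 and the median over all 456 miRNAs was -0.22. After rescaling by the median of ratios the latter was -0.01, and miR-362-3p then rose by 1.25 on the log2 scale, with an adjusted limma p of 0.0889.

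The rise of miR-362-3p was seen under every setting tried, with log2 changes of 0.95 to 1.26. Its adjusted p ranged from 7.32e-05 with DESeq2 on the recovered reads, over 0.0743 with edgeR, to 0.348 with limma without 18M replicate 1. DESeq2 called 4.17% of the miRNAs at the adjusted threshold (19 of 456), against 1 in the limma fit and 0 with edgeR. Blocking on the replicate number gave a limma p of 0.00619 and an adjusted p of 0.220.

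Sums of some cell type markers differed between the ages in the same libraries, and others overlapped. The neuronal miRNAs miR-124-3p, miR-9-5p and miR-128-3p (3 of 3 found) were abundant in every library of this brain tissue, summing to 184377 and 195044 CPM in young and to 195706 and 169186 CPM in old mice, and overlapped. The epithelial markers miR-200a-3p, miR-200b-3p, miR-429-3p and miR-204-5p (4 of 4 found) were higher as a sum at 18 months, with 26521 and 45248 CPM in young and 52985 and 58022 CPM in old mice. Of these, miR-204-5p, which marks the choroid plexus, overlapped (2100 and 2623 CPM in young, 2256 and 2786 CPM in old mice). The endothelial arms of miR-126a (2 of 2) were lower as a sum, with 11472 to 12243 CPM in young and 5422 to 8990 CPM in old mice. The 3p arm was lower, while miR-126a-5p overlapped (3000 and 2618 CPM in young, 2865 and 2501 CPM in old mice). The smooth muscle markers miR-143-3p and miR-145a-5p (2 of 2) were lower as well, with 6415 to 6559 CPM in young and 4915 to 5033 CPM in old mice. Markers of oligodendrocytes (2 of 2; 5180 to 6565 CPM in young, 4119 to 6365 CPM in old mice), blood (2 of 3, the third being listed under a joint name; 1798 to 3374 and 1698 to 2818 CPM) and leukocytes (3 of 3; 485 to 734 and 423 to 527 CPM) overlapped. For single miRNAs on CPM, both old libraries were below both young ones for 41.4% of those tested, and above them for 12.1%. No marker in the table was at 0 in any library. The part of these shifts in the rise of miR-362-3p was not tested. In bulk tissue, more cells of a type and more of an RNA per cell cannot be told apart.

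**Figure D3:**
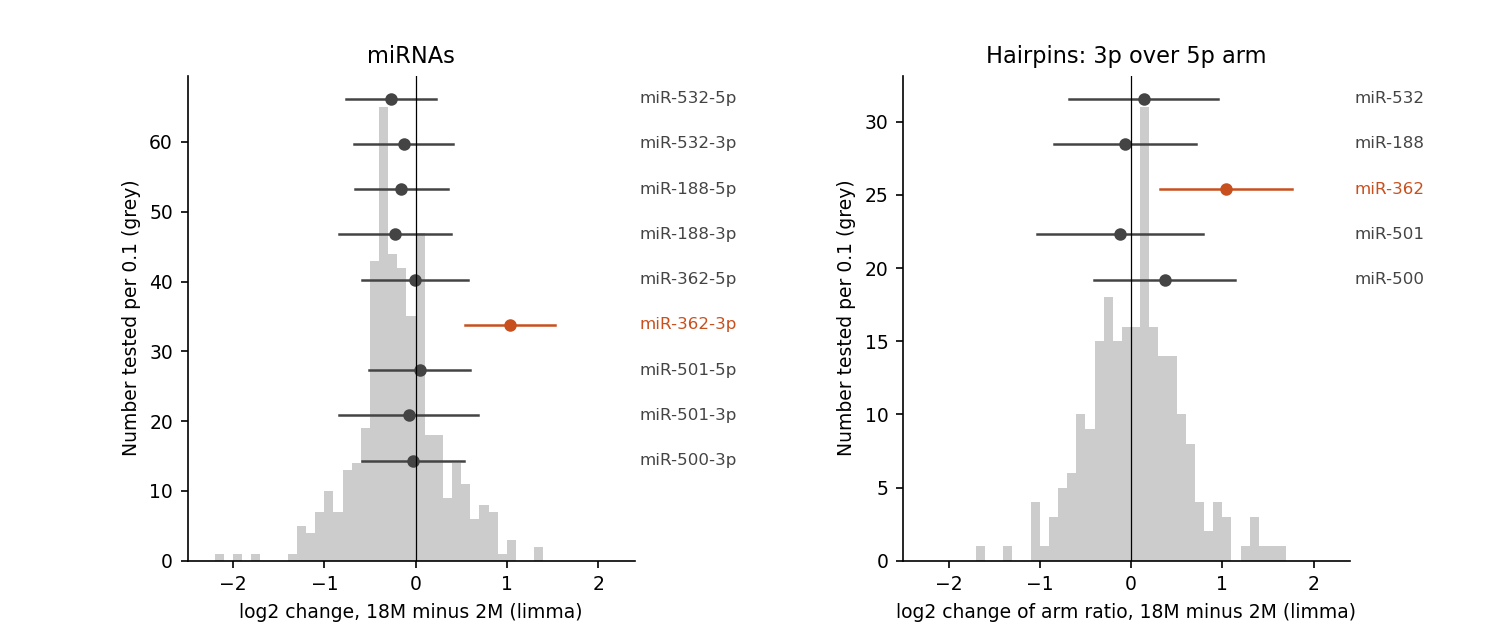
Left, log2 change from 2M to 18M (limma on log2(CPM + 1)) of the 9 members as points with 95% intervals, over a grey histogram of all 456 miRNAs tested. Right, the same for the log2 ratio of the 3p to the 5p arm of the 5 hairpins, over all 233 hairpins tested. miR-362-3p at 1.03 and the arm ratio of miR-362 at 1.04 (orange, unadjusted p under 0.05) have intervals above 0, and the other intervals include 0.

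The arms of each hairpin were compared next. In miR-362 the 3p arm held 80.2% of reads (95% Wilson interval 78.7 to 81.6) and 81.6% (80.1 to 83.0) in the 2M libraries. In the 18M libraries it held 89.0% (88.1 to 89.8) and 90.4% (89.5 to 91.3). Thus both old libraries were above both young ones, beyond counting error, and the means differed by 8.80 percentage points (exact permutation p = 0.333). The share of all hairpins that separate by age was not counted, so this separation, and that of miR-500 below, has no background. The ratio of the 3p arm to the 5p arm was fitted with limma over 233 hairpins with both arms named. For miR-362 it rose by 1.04 on the log2 scale (SE 0.28, 95% interval 0.31 to 1.76, unadjusted p = 0.0143, adjusted p = 0.758). Of the 233 hairpins, 5.15% passed an unadjusted p under 0.05 and 0 passed the adjusted threshold (1 of 5 in the cluster passed the former). The change of miR-362 was the 15th largest by size. Without 18M replicate 2 the log2 change was 0.93 with an unadjusted p of 0.0675.

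The remaining hairpins kept their dominant arm in nearly all libraries. miR-532 was mostly 5p, with 29.0% and 31.0% of reads on the 3p arm at 2 months and 36.0% and 28.3% at 18 months. miR-188 was mostly 5p as well, with 28.6% and 24.8% on the 3p arm in young and 23.5% and 28.1% in old mice. miR-501 was near balance, with a 3p share of 55.1% and 52.8% in young and 57.9% and 45.6% in old mice, so that the larger arm differed between the old libraries. These 3 hairpins overlapped between the ages, with changes of the arm ratio of 0.14, -0.07 and -0.12 on the log2 scale and limma p of 0.678, 0.832 and 0.743.

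miR-500 was almost wholly 3p, with 97.7% and 98.1% in young and 98.6% and 98.2% in old mice, the old above the young. Its 5p arm, mmu-miR-500-5p, is not a member and lies in the same hairpin. It was measured at 6.68 and 7.29 CPM in young and at 4.82 and 5.29 CPM in old mice, which is 48 to 83 reads. The arm ratio of miR-500 gave a log2 change of 0.37 (SE 0.30, limma, unadjusted p = 0.272).

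**Figure D4:**
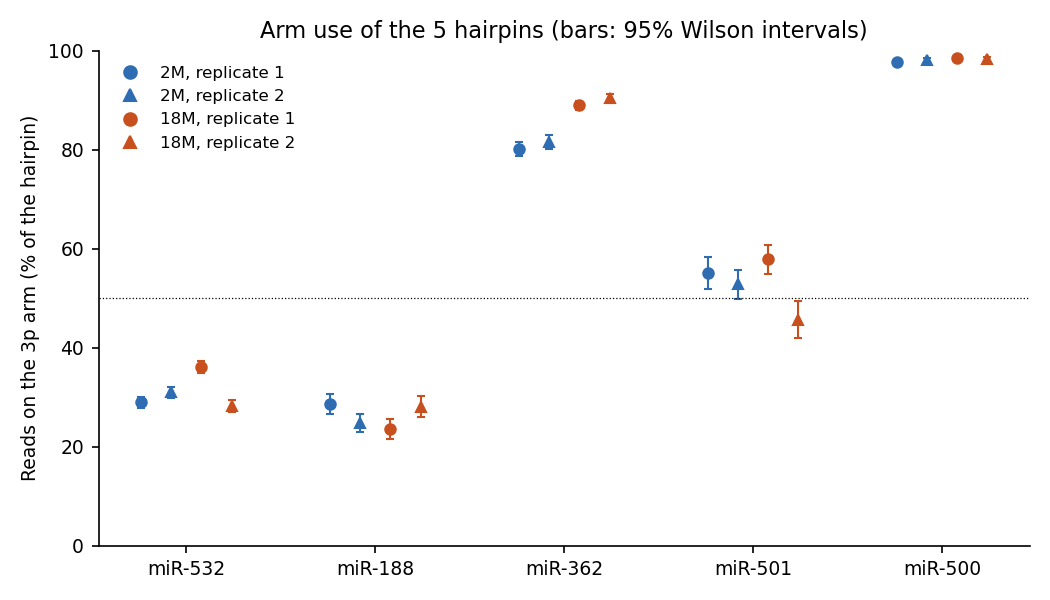
Share of each hairpin's reads on the 3p arm (%) in each library, with 95% Wilson intervals that cover counting error only. The 3p share of miR-362 is 80.2% to 81.6% at 2 months and 89.0% to 90.4% at 18 months, and the ages of miR-532, miR-188 and miR-501 overlap.

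miR-362-3p also made up more of the cluster in old mice. It contributed 15.1% and 12.8% of the cluster's reads at 2 months and 26.1% and 27.4% at 18 months. miR-532-5p contributed 30.8% and 28.7% in young and 21.5% and 24.9% in old mice. Without miR-362-3p the cluster summed to 1230 and 1336 CPM in young and to 1187 and 1137 CPM in old mice, so that the order of the ages was the opposite of that of the full sum. After rescaling by the median of ratios the ages overlapped, with 1121 and 1253 in young and 1294 and 1195 in old mice.

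The rise of miR-362-3p was then followed into its single sequences. The 3 most abundant ones share the 5′ end of the mature miRNA and differ in where they stop (deposited as DNA, bases 2 to 8 in capitals).
miR-362-3p, 22 nucleotides: aACACACCtgttcaaggattca
miR-362-3p, 21 nucleotides: aACACACCtgttcaaggattc
miR-362-3p, 20 nucleotides: aACACACCtgttcaaggatt

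The form of 22 nucleotides, identical to the RefSeq mature miRNA, was measured at 106 and 77.2 CPM in young and at 197 and 190 CPM in old mice. It rose by 1.09 on the log2 scale (SE 0.30, limma, unadjusted p = 0.00538, adjusted p = 0.303). The form of 21 nucleotides was at 43.6 and 49.3 CPM in young and at 112 and 99.9 CPM in old mice, a rise of 1.17 (SE 0.29, limma, unadjusted p = 0.00303, adjusted p = 0.268). The form of 20 nucleotides was at 35.7 and 42.0 CPM in young and at 42.7 and 70.9 CPM in old mice. Its ages did not overlap, and the log2 difference of 0.50 (SE 0.34, limma, unadjusted p = 0.178) did not pass the test. A form of 23 nucleotides, chosen after its values were seen, was at 9.44 and 4.92 CPM in young and at 31.5 and 28.1 CPM in old mice, and rose by 1.97 (SE 0.36, limma, unadjusted p = 0.000395, adjusted p = 0.155).

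A total of 14287 sequences reached a mean of 1 CPM and were tested, and 10.1% of them passed an unadjusted p under 0.05, with 5.87% higher at 18 months, and 0.042% passed the adjusted threshold. Among the 8 sequences of miR-362-3p tested, 4 were higher, 0 were lower and 0 passed the adjusted threshold. They are parts of the miR-362-3p sum in the same libraries, so their calls are not independent of its rise. Of the 71 sequences of the other members, 1 was higher and 4 were lower, where 4.23% of all sequences tested were called lower. The higher one was the 21-nucleotide form of miR-501-5p, at 3.53 and 2.72 CPM in young and 6.34 and 7.50 CPM in old mice. It was the third most abundant of its miRNA, whose sum did not pass the test. The 4 lower ones belonged to miR-188-3p (2), miR-188-5p (1) and miR-532-3p (1), and none was among the 3 most abundant of its miRNA.

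**Figure D5:**
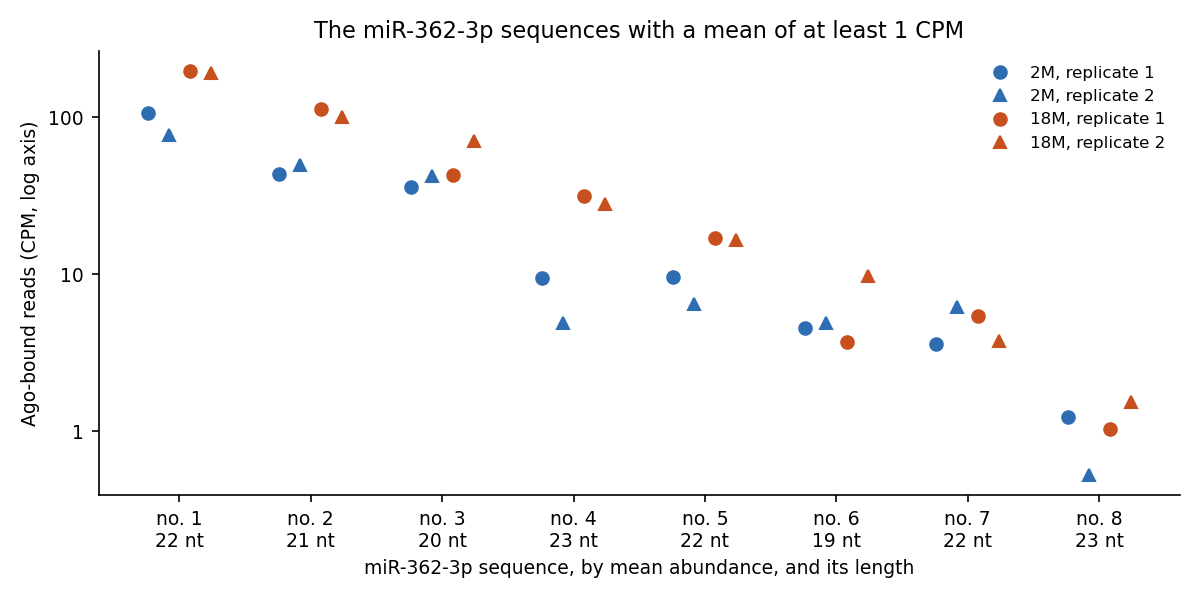
Reads in each library (CPM, log axis) of the 8 miR-362-3p sequences that were tested, ordered by mean abundance, with the length of each in nucleotides. The old libraries lie above the young ones for the first 5 sequences, for example 190 to 197 against 77.2 to 106 CPM for the first, and the ages overlap for the last 3. The share of all sequences tested that separate in this way was not counted.

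The 5′ end fixes the seed, and it was nearly uniform. For miR-362-3p, 99.3% to 99.5% of reads started at the mature 5′ end in all libraries. miR-188-3p was the least uniform, with 91.5% and 94.4% in young and 89.1% and 93.5% in old mice, and the other members were at 95.7% to 100%. For miR-532-5p, the start of its most abundant read stood in for the mature 5′ end. Between the ages the 9 shares differed by -1.61 (miR-188-3p) to 1.27 points (miR-362-5p), with exact permutation p of 0.333 to 1. The difference of miR-362-5p was 0 with sequences of at least 1 CPM only and 0.33 points without 2M replicate 2.

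The 3′ ends varied much more, and in a way that differed between members. miR-532-5p was the most uniform, with 80.9% to 86.4% of reads at 22 nucleotides. For miR-501-5p, 59.9% to 64.7% of reads were 20 nucleotides long, shorter than the mature miRNA of 22. For miR-362-5p, 83.8% to 90.1% of reads ended before the RefSeq 3′ end of the mature miRNA. miR-362-3p matched the RefSeq end in 39.7% to 49.0% of reads. Its share with extra bases that match the hairpin was 4.37% and 2.61% in young and 7.58% and 6.61% in old mice. Here the old libraries were above the young ones, which was also so for miR-501-3p (27.5% and 28.7% in young, 29.0% and 29.8% in old mice), while the reverse was seen for miR-501-5p (6.86% and 6.69% in young, 5.20% and 4.57% in old mice). Tails of 1 to 3 other bases were on 7.65% and 8.01% of miR-362-3p reads in young and on 6.76% and 6.22% in old mice. They were also lower in both old libraries for miR-188-3p and miR-532-3p and higher for miR-362-5p, and none of these shares was tested.

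miR-188-5p carried the most tails of the members with a RefSeq entry. Between 31.9% and 38.4% of its reads ended in 1 to 3 bases that do not match the hairpin, and another 30.8% to 42.5% were longer by bases that do match. Its most abundant read, shown for this reason, was 1 base longer than the RefSeq mature miRNA.
miR-188-5p, 22 nucleotides: cATCCCTTgcatggtggagggt
This read was measured at 44.0 and 45.3 CPM in young and at 49.6 and 42.8 CPM in old mice, and the ages overlapped.

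The study assigns each 6mer seed a viability, the mean survival of 3 mouse cell lines after transfection with a duplex carrying it, in percent of the control. A low value marks a toxic seed. Within the cluster miR-188-5p (32.6%) and miR-532-5p (36.1%) had the lowest values. miR-362-3p stood at 54.2%, miR-500-3p and miR-501-3p at 57.3%, miR-188-3p at 65.9% and miR-532-3p at 69.3%. The highest was that of miR-501-5p and miR-362-5p, 81%.

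The makeup of the cluster by seed was compared between the ages. Reads with a seed viability under 40% made up 39.7% and 38.2% of the cluster in young and 28.9% and 33.1% in old mice. Both old shares were below both young ones (exact permutation p = 0.333). miR-362-3p, with a seed viability of 54.2%, made up 15.1% and 12.8% of these reads at 2 months and 26.1% and 27.4% at 18 months. The shares and means of the cluster are therefore not independent of its rise, and they were not compared without this member. Reads at 70% or more stayed within 5.58% to 6.57%. The mean seed viability of the cluster was 51.3% and 51.6% in young and 53.1% and 51.8% in old mice. Both old values were above both young ones, by 0.993 points between the means (exact permutation p = 0.333). Over all reads of the libraries the mean was higher, at 57.7% and 57.9% in young and 58.1% and 58.4% in old mice, and separated the ages in the same direction, by 0.436 points (exact permutation p = 0.333).

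Some seeds of the cluster are also loaded from elsewhere. The seed of miR-362-3p at bases 2 to 8 is shared with miR-329-3p, a miRNA of the imprinted Dlk1-Dio3 region that is not in this intron. miR-329-3p was measured at 335 and 466 CPM in young and at 237 and 467 CPM in old mice. The ages overlapped (log2 difference -0.25, SE 0.36, limma, unadjusted p = 0.521, adjusted p = 0.735). The reads of both miRNAs summed to 553 and 661 CPM in young and to 655 and 895 CPM in old mice, which overlapped as well. miR-362-3p supplied 39.4% and 29.5% of them in young and 63.8% and 47.9% in old mice.

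For the seed of miR-500-3p and miR-501-3p, miR-500-3p supplied 84.8% to 89.6% of the reads of this pair. miR-362-5p shared its seed with miR-500-5p, which was at 4.82 to 7.29 CPM against 44.0 to 53.9 CPM. That of miR-188-5p is shared with miR-7061-3p, for which no read was listed. Counted by the 6mer seed over all sRNAs in the table, miR-532-5p supplied 98.0% to 98.9% of its seed and miR-188-5p 78.9% to 89.8%. By contrast, miR-532-3p supplied 5.83% to 7.60% of its seed, and miR-188-3p 12.8% to 15.5%.

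The remaining miRNAs of chromosome X were counted for comparison. Of 140 mature miRNAs annotated on it outside the cluster, 69 were in the table and 35 were tested. At an unadjusted limma p under 0.05, 4 fell (miR-322-5p, miR-351-5p, miR-503-5p and miR-98-5p) and 0 rose, and 0 passed the adjusted threshold. Of all 456 miRNAs, 55 were called lower (12.1%), or 25 after rescaling by the median of ratios. The median log2 change of the 35 chromosome X miRNAs tested was -0.24, next to -0.22 for all miRNAs and -0.08 for the members.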

How the data were processed

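Ago-bound RNA was cut from a gel at 19 to 35 nucleotides per the labels and sequenced on an Illumina HiSeq instrument. The deposited sequences are 15 to 33 nucleotides long. The authors trimmed the reads (Trim Galore per the labels), removed rare reads, matched the rest to mouse small RNAs by BLAST and deposited CPM per sequence and library, with a seed viability score from their screen for each sequence. A column with the authors' summed signal of the 4 libraries was not used. The genome build of the names is not given in the sources used here, and coordinates are those of GRCm38. The labels state 250 mg of tissue per library and the methods of the paper a lower amount.

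Rows were summed by miRNA name. Dividing by what 1 read was worth gave whole reads for 100% of values (tolerance 0.05 reads). Depth was 10484940 and 11388999 reads at 2 months and 10575081 and 9067007 at 18 months, so that 3 reads were worth 0.263 to 0.331 CPM. Wilson intervals (95%) cover counting error only.

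limma (trend for miRNAs and sequences, none for arm ratios) was fitted, two-sided, to log2(CPM + 1) with age as the only term, for miRNAs and hairpins averaging 10 CPM or more and sequences averaging 1 CPM or more. Sums and shares were compared by exact permutation tests over the libraries. The labels do not say which animal gave which library, so p-values measure the spread between these libraries. The members and lists were chosen with earlier results of these data known. Named besides the members were miR-500-5p, miRNAs sharing a seed, the 3 nearest profiles and the 3 most abundant sequences of each member. Alternatives were pseudocounts of 0.1 and 5, other filters, no trend, median of ratios, edgeR and DESeq2 on recovered reads, reads at the mature start only, the replicate block, and each library left out. The fits were tested on simulated data. Tools were DESeq2 1.42.0, edgeR 4.0.16 and limma 3.58.1 in R 4.3.3, with scipy 1.17.1, pandas 2.3.3, numpy 2.4.6 and matplotlib 3.10.9 in Python 3.11.15.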

Additional observations from a re-analysis of the deposited data

How the results depend on the processing

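The direction of the miR-362-3p rise, of its arm ratio and of the cluster sum was kept under every alternative run, the cluster sum with differences of 39.9 to 320.3 CPM. With 2 libraries per age, and reads of 34.4 to 60.0 CPM for the 4 lowest members, small differences of the remaining members were not resolved. The number of miRNAs at an unadjusted p under 0.05, 74 of 456, was 125 without the filter and 43 at 100 CPM. Of these calls 25.7% were higher at 18 months on CPM, 60.9% after the median of ratios (64 calls), 62.9% with edgeR and 62.3% with DESeq2. Under median of ratios, edgeR and DESeq2, in this order, log2 differences that were below 0 on CPM turned positive for miR-500-3p (0.18, 0.18, 0.17), miR-501-3p (0.13, 0.20, 0.19), miR-362-5p (0.20, 0.22, 0.21), miR-188-5p (0.053, 0.060, 0.049) and miR-532-3p (0.079, 0.10, 0.091), and with edgeR for miR-188-3p (0.0059); none passed the test. miR-362-5p was at 0.013 with reads at the mature start only. Leaving out 1 library at a time gave log2 differences of -0.23 to 0.17 for miR-500-3p, -0.47 to 0.31 for miR-501-3p, -0.031 to 0.12 for miR-501-5p, -0.15 to 0.14 for miR-362-5p and -0.30 to 0.039 for miR-532-3p, and log2 changes of the arm ratio of 0.93 to 1.15 for miR-362, -0.47 to 0.23 for miR-501, -0.24 to 0.10 for miR-188 and -0.12 to 0.40 for miR-532. The replicate numbers come from the labels. Same-numbered libraries had deviations with r = 0.180 over 456 miRNAs, too few pairs (2) to show a pairing; with the replicate block 79 miRNAs, 21 hairpins (12 without it) and 1530 sequences (1443 without it) were called. The hairpin count was 7 to 29 with 1 library left out. At a filter of 10 CPM 424 sequences were called. With the most abundant sequences only, the 3p share differed by 2.49 points for miR-501 and 1.83 for miR-188, against -2.20 and -0.94. The share of miR-532-5p reads at the start of its most abundant read differed by -0.11 points with sequences of at least 1 CPM. The cause of these changes was not tested.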

Other observations

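Reads that lie on the 5 hairpins without a miRNA name numbered 34 sequences and summed to 3.72 and 4.74 CPM at 2 months and to 4.73 and 5.63 CPM at 18 months, which corresponds to 0.257% to 0.359% of the cluster. Of these, 16 sequences lay on the miR-362 hairpin, with 2.48 and 1.23 CPM in young and 3.03 and 3.09 CPM in old mice. In the column that names other RNA classes, 99.5% of miR-532-3p reads and 94.7% of miR-532-5p reads also carried the name of a piRNA, and 0% of the reads of the other 7 members did.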
